A study of Mus musculus with 8 samples.

Results

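The transcripts described here are those of 9 genes that serve nuclear receptor signalling: the p160 coactivators Ncoa1, Ncoa2 and Ncoa3, the acetyltransferases Crebbp (CBP) and Ep300 (p300), the corepressors Ncor1 and Nrip1, the glucocorticoid receptor gene Nr3c1 and the retinoid X receptor gene Rxra. They were chosen by name, and each matched a single identifier among the 53647 in the count files. All 9 passed the filter on low counts and are among the 16352 genes tested. The RNA came from Lin- CD127+ cells of mouse bone marrow, with 4 libraries from Trerf1 +/+ mice (WT) and 4 from mice whose genotype label reads Tref1 -/- (KO). CD127, the protein of Il7r, marks lymphoid progenitors and precursors of innate lymphoid cells. No treatment, age or strain is given, and the sources used here state neither which exons the knockout lacks nor whether each library is its own mouse. The p-values therefore cover differences among libraries, which may be technical.

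Nuclear receptors are transcription factors whose activity is set by small lipid-soluble ligands such as glucocorticoids and retinoids. A ligand-bound receptor recruits a p160 coactivator, which in turn brings CBP or p300 to acetylate histones, whereas receptors without ligand, or bound to an antagonist, can hold a corepressor with a histone deacetylase. Trerf1 encodes a zinc finger protein described as a partner of CBP/p300 and of steroidogenic factor 1. In lymphoid progenitors the glucocorticoid receptor is known for restraining proliferation and survival, and its targets include Il7r.

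Trerf1 itself stood at 29.0, 32.1, 27.1 and 22.3 CPM (counts scaled to library size with TMM factors) in WT1 to WT4, and at 13.4, 12.8, 12.1 and 22.1 CPM in KO1 to KO4. All KO libraries lay below all WT libraries, but the library labelled KO4 was at the level of WT4 and far above the other 3. The mean log2 level differed by -0.90 (two-sided exact permutation p = 0.0286, the smallest that 4 against 4 can give). By edgeR the log2 fold change was -0.87 ± 0.20 (SE; unadjusted p 0.0015, adjusted p 0.999). The knocked-out gene itself thus did not pass the adjusted threshold of 0.05. Every direction below that uses KO4 rests on its label. KO4 also had the highest share of counts in loci that the annotation types as TEC (a class of loci with tentative evidence), 0.308% against 0.117% to 0.269% in the other libraries. Xist was present in WT1, WT4, KO1, KO3 and KO4 and at most 0.613 CPM in the other 3. Total counts ran from 31109744 to 73414626 per library. All 9 markers of the sorted cells were present, with Il7r at 324 ± 46.8 CPM in WT and Flt3, the receptor of early lymphoid progenitors, at 1066 ± 169 CPM (SD, n = 4). Summed markers of erythroid cells ran from 609 to 1415 CPM in WT and from 684 to 968 CPM in KO, those of neutrophils from 189 to 282 and from 167 to 340 CPM, and those of T cells from 403 to 478 and from 445 to 582 CPM. Those of plasmacytoid dendritic cells were larger, from 3470 to 6386 CPM in WT and from 3754 to 4938 CPM in KO. Of the tested markers, 1 of 12 erythroid, 8 of 8 neutrophil, 8 of 9 monocyte, 7 of 9 B cell, 8 of 9 T cell, 1 of 10 ILC2 and 2 of 8 plasmacytoid dendritic cell genes had estimates above 0, beside 51.7% of all genes tested. In that order, 0, 1, 2, 1, 2, 3 and 0 had an unadjusted p under 0.05 by edgeR, beside 1.97% of all genes. The erythroid and neutrophil values each turn on 1 library: the erythroid median log2 fold change was -0.96, and 0.20 without WT1, and the neutrophil median was 1.08, and -0.26 without KO1. The other lists did not all do so. Over 19 alternative runs the ILC2 median (-0.57) stayed between -0.97 and -0.067. The T cell, B cell and monocyte medians (0.34, 0.26 and 0.31) ran from 0.28 to 0.55, 0.095 to 0.39 and 0.11 to 0.44. The plasmacytoid dendritic cell median (-0.01) ran from -0.20 to 0.25. The part of these cells in the results below was not tested, and in bulk RNA fewer cells of a type and less RNA per cell cannot be told apart.

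No difference between KO and WT passed the test for any of the 9 genes. With p-values from the edgeR quasi-likelihood fit, adjusted by Benjamini-Hochberg over all genes tested, 0 of 9 were under 0.05 (each adjusted p 0.999) and 0 of 9 had an unadjusted p under 0.05. Over all 16352 genes the shares were 0% and 1.97% (1.04% higher and 0.93% lower in KO), and a count of 0 among 9 genes does not stand apart from that. DESeq2 and limma-voom also gave 0 of 9 on both criteria, with 1.88% and 5.45% of all genes at an unadjusted p under 0.05. With WT4 and KO4 left out together, 0 of 9 passed either criterion, beside 0.0736% and 8.75% of all genes. The log2 fold changes ran from -0.15 for Ncoa3 to 0.07 for Nr3c1, with a median of -0.09 beside 0.01 over all genes. Of the 9, 4 had estimates above 0, beside 51.7% of all genes, and the number was 1 to 5 over the alternatives, with 1 without WT4 and KO4. The median was 0.00076 with RSEM expected counts. In CPM, 0 of 9 had all KO libraries above or all below the WT libraries, beside 0.74% and 0.544% of all genes.

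**Figure D1:**
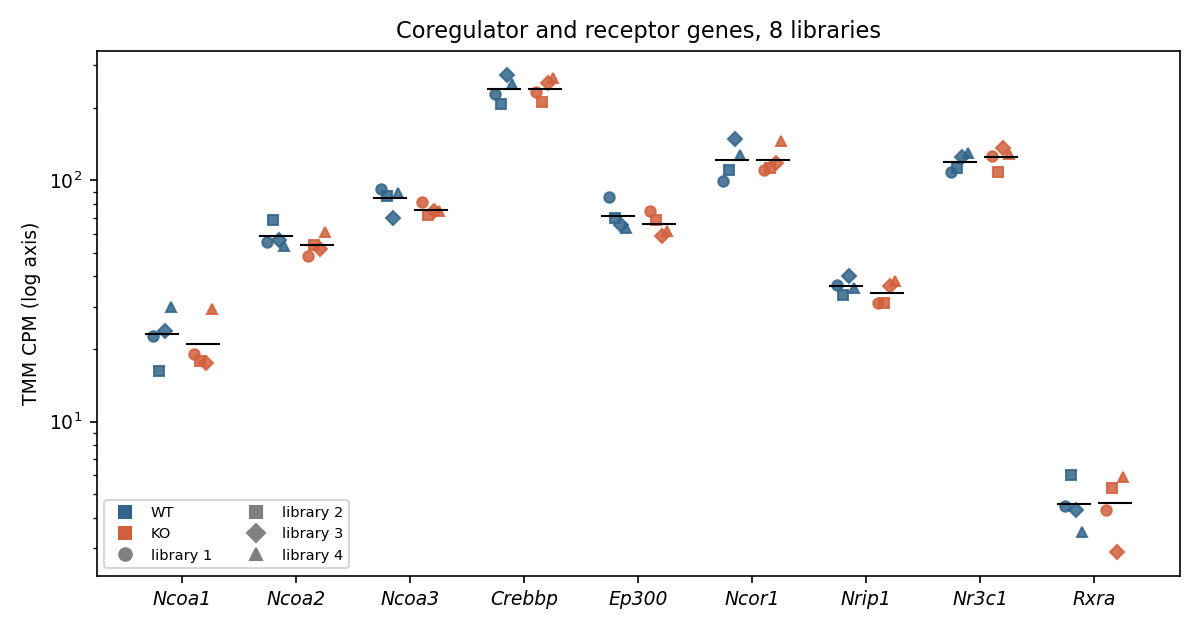
TMM-scaled CPM (log axis) of the 9 genes in each library, WT in blue and KO in orange, with the marker shape giving the library number and the black line the group mean. The groups overlap for every gene, from Rxra at 2.89 to 6.04 CPM up to Crebbp at 207 to 275 CPM.

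The 3 p160 genes encode scaffolds that bind the ligand-bound receptor and recruit CBP/p300. Ncoa3 (chromosome 2, 165834556 to 165915162, plus strand, in the GRCm39 coordinates of the count files) stood at 92.3, 85.9, 70.1 and 88.9 CPM in WT1 to WT4 and at 81.2, 71.9, 75.0 and 75.0 CPM in KO1 to KO4. WT3 was the lowest library of all, and the other WT libraries lay above every KO library. The log2 fold change was -0.15 ± 0.10 (SE; 95% interval -0.38 to 0.07). Without WT3 it was -0.24, with an unadjusted p of 0.0244 and an adjusted p of 0.9999 (edgeR).

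Ncoa2 (chromosome 1, 13209329 to 13444307, minus strand) gave 55.6, 68.6, 56.8 and 53.7 CPM in WT1 to WT4 and 48.8, 54.2, 52.1 and 60.9 CPM in KO1 to KO4. WT2 was the highest and KO4 the second, so the groups interleaved. The log2 fold change was -0.12 ± 0.11 (SE; 95% interval -0.36 to 0.12). Ncoa1 (chromosome 12, 4297362 to 4527182, minus strand) gave 22.6, 16.3, 23.8 and 29.9 CPM in WT1 to WT4 and 19.1, 17.8, 17.5 and 29.4 CPM in KO1 to KO4. Both number 4 libraries were high, while WT2 was the lowest of all. Its log2 fold change was -0.14 ± 0.22 (SE; 95% interval -0.62 to 0.33), which became 0.0074 without WT4 and -0.35 without KO4 (unadjusted p 0.096 by edgeR). Ncoa1 and Rxra varied most among the 9, with coefficients of variation of 24.2% and 24.4% over the 8 libraries, against 8.83% to 14.3% for the other 7.

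Crebbp and Ep300 encode closely related acetyltransferases that act as coactivators for many factors besides nuclear receptors. Crebbp (chromosome 16, 3899192 to 4031861, minus strand) had the most counts of the 9, with 229, 207, 275 and 251 CPM in WT1 to WT4 and 232, 211, 253 and 266 CPM in KO1 to KO4. The number 2 libraries were lowest in both groups, and the group means were 241 ± 29.1 and 241 ± 24.1 CPM (SD, n = 4 each). Its 95% interval ran from -0.25 to 0.25 on the log2 scale, or 0.844 to 1.19 times WT. Ep300 (chromosome 15, 81469552 to 81536278, plus strand) gave 85.2, 70.2, 65.2 and 63.3 CPM in WT1 to WT4 and 74.5, 68.7, 58.8 and 61.8 CPM in KO1 to KO4. The number 1 library was the highest in each group. The log2 fold change was -0.11 ± 0.12 (SE; 95% interval -0.37 to 0.16).

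Ncor1 is the scaffold of the corepressor complex that carries the deacetylase Hdac3, and Nrip1 (RIP140) is a corepressor that binds receptors in the presence of ligand. Ncor1 (chromosome 11, 62207252 to 62349367, minus strand) stood at 99.9, 111, 148 and 127 CPM in WT1 to WT4 and at 111, 113, 119 and 146 CPM in KO1 to KO4. WT3 and KO4 were the high libraries, 1 in each group. The log2 fold change was 0.01 ± 0.14 (SE; 95% interval -0.29 to 0.31). Nrip1 (chromosome 16, 76084288 to 76170715, minus strand) gave 36.7, 33.5, 40.3 and 35.9 CPM in WT1 to WT4 and 31.1, 31.2, 36.6 and 38.2 CPM in KO1 to KO4. KO1 and KO2 lay under every WT library and KO3 and KO4 within the WT range. The log2 fold change was -0.09 ± 0.11 (SE; 95% interval -0.34 to 0.15), and it was 0.02 with RSEM expected counts.

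Nr3c1 (chromosome 18, 39543598 to 39652474, minus strand) was the steadiest of the 9, at 108, 113, 125 and 130 CPM in WT1 to WT4 and at 126, 108, 136 and 129 CPM in KO1 to KO4. KO3 was the highest library and WT1 and KO2 were the lowest. The means were 119 ± 10.3 CPM in WT and 125 ± 11.8 CPM in KO (SD, n = 4 each), with a log2 fold change of 0.07 ± 0.10 (SE). The 95% interval, -0.15 to 0.29, corresponds to 0.904 to 1.22 times WT. Rxra (chromosome 2, 27566452 to 27652969, plus strand), a partner in heterodimers with many other receptors, gave 4.47, 6.04, 4.29 and 3.48 CPM in WT1 to WT4 and 4.29, 5.34, 2.89 and 5.93 CPM in KO1 to KO4. It rested on 94 to 398 counts per library, the fewest of the 9. Its 95% interval was -0.58 to 0.61 on the log2 scale or 0.67 to 1.53 times WT, so a difference within those bounds was not excluded here.

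**Figure D2:**
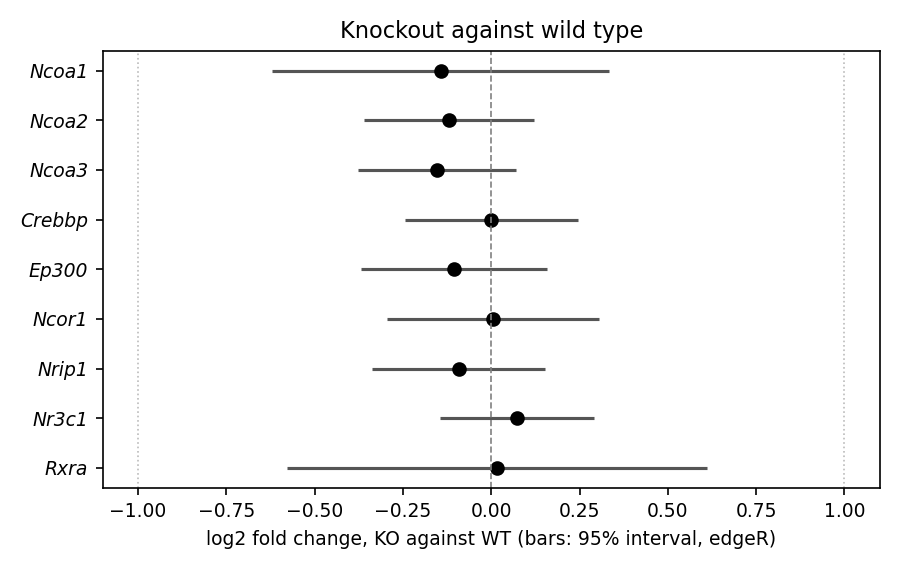
Log2 fold change of KO against WT for the 9 genes (points), with 95% intervals from the edgeR fit (bars), the dashed line at 0 and dotted lines at -1 and 1. Each interval spans 0, and the widest are those of Ncoa1 (-0.62 to 0.33) and Rxra (-0.58 to 0.61).

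Levels of different genes were compared in TPM (deposited RSEM values, scaled by transcript length and library total). Ncor1 (64.4 ± 12.2 TPM in WT and 56.3 ± 13.7 TPM in KO) and Nr3c1 (53.5 ± 2.98 and 52.5 ± 2.84 TPM) led the list and overlapped, Ncor1 being the higher in 6 of 8 libraries. Crebbp followed at 27.1 ± 3.32 and 26.2 ± 3.35 TPM, under Nr3c1 and above Ncoa3 in 8 of 8 libraries. Ncoa3 (16.7 ± 1.59 and 13.8 ± 0.711 TPM) and Ep300 (15.4 ± 3.35 and 13.8 ± 2.54 TPM) overlapped. Ncoa2, Nrip1 and Ncoa1 came next at means over all libraries of 11.9, 9.12 and 6.86 TPM, each above the following one in 8 of 8 libraries although their ranges overlapped. Rxra was last at 1.29 TPM. The order at the top depends on the length used: by TMM CPM per kilobase of all annotated exons Crebbp ranked 1, Nr3c1 2, Ncoa3 3 and Ncor1 4.

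Among the p160 transcripts, Ncoa3 made up 40.0% to 48.2% of the summed TPM, Ncoa2 28.8% to 41.7% and Ncoa1 14.8% to 24.2%. Crebbp exceeded Ep300 in every library, by 1.36 to 2.54 times in TPM, with mean ratios of 1.85 ± 0.583 in WT and 1.93 ± 0.300 in KO (SD, n = 4 each). The summed p160 TPM was 0.580 ± 0.138 times that of Ncor1 in WT and 0.586 ± 0.137 times in KO. The last relation holds for TPM only, since it depends on the length used. By TMM CPM per kilobase of all annotated exons, Ncoa3 alone (mean 10.1) lay above Ncor1 (9.51), so the p160 sum was the higher. The p160 shares and the Crebbp to Ep300 ratio also depend on the lengths and were computed in TPM alone.

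The 48 receptor genes of the mouse nuclear receptor list place Nr3c1 and Rxra among their relatives. Of these, 31 were tested. By TPM, Nr3c1 ranked 3 of the 31, behind the immediate early receptor Nr4a1 (135 TPM on average, from 44.8 to 261 TPM) and the oxysterol receptor Nr1h2 (116 TPM, from 105 to 125 TPM), and ahead of the retinoic acid receptor Rara (28.6 TPM). Nr3c2, the mineralocorticoid receptor that also binds glucocorticoids, was at 0.598 TPM. Rxra ranked 25 of 31. It held 1.98% to 5.50% of the summed TPM of the 3 RXR genes, while Rxrb held 68.9% to 80.3% and Rxrg 14.8% to 26.4%. The RXR transcript of these cells was thus mainly Rxrb, at 26.5 ± 2.62 TPM in WT and 21.7 ± 2.07 TPM in KO (SD, n = 4 each).

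**Figure D3:**
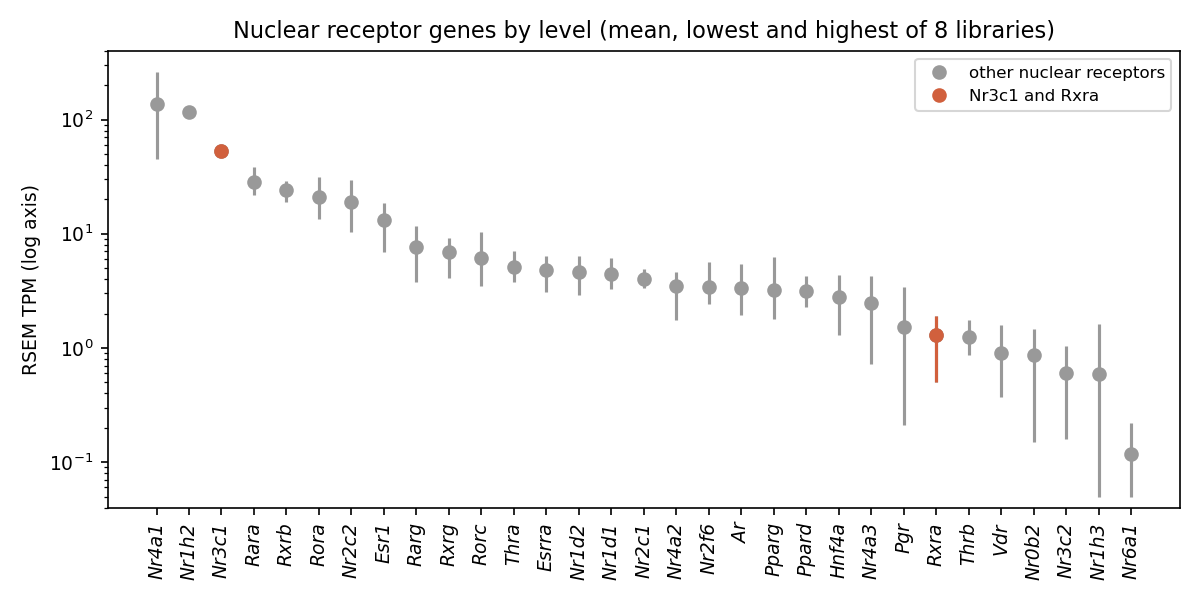
TPM (log axis) of the 31 nuclear receptor genes tested, in order of their mean over the 8 libraries (point), with a line from the lowest to the highest library, and lines cut off below 0.05. Nr3c1, in orange, ranks 3 with a narrow range (49.1 to 55.5 TPM) and Rxra far to the right at 1.29 TPM.

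Of the 31 receptor genes, 12 had estimates above and 19 below 0 (median log2 fold change -0.09 beside 0.01 for all genes), and 0 passed the adjusted threshold by edgeR. A single one, Rarg, a retinoic acid receptor, had an unadjusted p under 0.05, which is 3.23% of the 31 beside the background of 1.97%. It gave 20.3, 23.8, 23.4 and 12.99 CPM in WT1 to WT4 and 15.3, 10.4, 13.6 and 14.4 CPM in KO1 to KO4, with WT4 inside the KO range (log2 fold change -0.58 ± 0.20, SE; unadjusted p 0.0163, adjusted p 0.999, edgeR). Rxrb was at 42.4 ± 3.38 CPM in WT and 37.8 ± 2.26 CPM in KO (log2 fold change -0.17 ± 0.10). Rara stood at 59.4 ± 8.37 and 56.0 ± 8.28 CPM, and Thrb, a thyroid hormone receptor, at 3.86 ± 1.25 and 2.96 ± 0.302 CPM.

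No gene known to respond to glucocorticoids passed the test either. Of 36 listed, 32 were tested, 11 with estimates above and 21 below 0 (median log2 fold change -0.07 beside 0.01 for all genes). The share above 0 was 34.4%, beside 51.7% of all genes. By edgeR 0 had an unadjusted p under 0.05, which does not stand apart from the 1.97% of all genes. Fkbp5, a chaperone component that dampens the receptor and is induced by it, stood at 34.4, 29.8, 43.3 and 34.1 CPM in WT1 to WT4 and at 34.1, 40.6, 38.6 and 45.9 CPM in KO1 to KO4. Tsc22d3 (GILZ), a classical mediator of glucocorticoid action, was at 209 ± 25.2 CPM in WT and 203 ± 35.6 CPM in KO (log2 fold change -0.04 ± 0.13). Il7r was at 354 ± 45.8 CPM in KO against 324 ± 46.8 CPM in WT (log2 fold change 0.13 ± 0.13). The clock gene Per1 gave 38.4, 59.8, 37.9 and 84.5 CPM in WT1 to WT4 and 25.4, 37.3, 49.7 and 97.8 CPM in KO1 to KO4, so WT4 and KO4 were its highest libraries. Dusp1, a phosphatase of MAP kinases, was likewise highest in WT4 and KO4, at 770 and 989 CPM, against 405 to 606 CPM in the other 6. Klf9 gave 1.39, 1.58, 2.76 and 2.85 CPM in WT1 to WT4 and 0.892, 1.23, 2.03 and 4.93 CPM in KO1 to KO4. Its highest libraries were again KO4 and WT4. Zbtb16 (PLZF), a transcription factor of innate lymphoid precursors, stood at 23.1 ± 7.65 CPM in WT and 17.8 ± 3.75 CPM in KO, the anti-inflammatory Anxa1 at 33.0 ± 4.29 and 38.8 ± 7.28 CPM, and Errfi1 at 1.92 ± 0.765 and 1.40 ± 0.365 CPM. Not all targets were highest in WT4 and KO4. Errfi1 was highest in WT4 (2.97 CPM) but lowest in KO4 (1.04 CPM), and Anxa1 was lowest in WT4 (28.0 CPM). Tsc22d3 was highest in KO4 (250 CPM) but at 192 CPM in WT4 against 236 CPM in WT2.

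Promoter windows of these targets were searched for sequences that the receptor and the CBP-binding factor CREB are known to recognise. Windows run from 250 bases before to 50 after a start, from RefSeq on GRCm38.p6. Of the 36 target genes 32 had at least 1 window. The glucocorticoid response element was searched as GNACANNNTGTNC and the cyclic AMP response element as TGACGTCA. Each motif is its own reverse complement, so both strands are covered, and no target gene held both. The former was found in 3 of the 50 target windows (6%), each of a different gene, and in 0.475% of all 32851 windows. The latter was found in 3 other target windows (6%) and in 1.79% of all windows. Sgk1 had the match in 1 of its 6 windows. The end of the window was found in a GENCODE M21 transcript of the gene for each gene shown but Btg2. The 6 matches are shown with 20 bases on each side, on the gene's strand, 5′ to 3′, with the motif in capitals, so that the targets with a match can be set beside their values.
Sgk1 (chr10:21993682-21993734, plus strand): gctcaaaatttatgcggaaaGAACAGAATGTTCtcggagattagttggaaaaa
Mt1 (chr8:94178975-94179027, plus strand): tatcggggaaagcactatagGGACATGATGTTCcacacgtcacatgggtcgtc
Txnip (chr3:96557765-96557817, plus strand): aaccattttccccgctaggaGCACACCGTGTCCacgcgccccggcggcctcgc
Dusp1 (chr17:26508588-26508635, minus strand): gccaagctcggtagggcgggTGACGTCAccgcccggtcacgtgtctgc
Btg2 (chr1:134079294-134079341, minus strand): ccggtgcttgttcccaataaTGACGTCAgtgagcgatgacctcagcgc
Errfi1 (chr4:150854999-150855046, plus strand): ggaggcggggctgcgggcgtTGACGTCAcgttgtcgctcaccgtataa

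A match is a description of letters, not a site shown to be bound. Sequence outside the windows was not searched, so a gene without a match may hold one elsewhere. Of the 9 coregulator and receptor genes, Crebbp, Ep300, Ncoa1, Ncor1, Nrip1 and Rxra had windows (9 in all), and neither motif occurs in them. Sgk1, a kinase induced by steroids, stood at 16.6, 15.8, 14.2 and 15.3 CPM in WT1 to WT4 and at 21.03, 12.2, 15.6 and 26.4 CPM in KO1 to KO4. KO4 and KO1 were its highest libraries and KO2 its lowest, so the KO libraries enclosed the WT range. Mt1, a metal-binding protein, gave 6.78, 5.61, 1.59 and 0.885 CPM in WT1 to WT4 and 4.63, 2.72, 0.799 and 2.05 CPM in KO1 to KO4. Txnip, a regulator of glucose uptake, was at 136 ± 26.3 CPM in WT and 133 ± 40.5 CPM in KO, and Btg2, an antiproliferative gene, at 513 ± 96.2 and 483 ± 125 CPM (SD, n = 4 each). Sgk1, Mt1, Txnip and Btg2 are named for their motif alone and were chosen after it was seen.

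Among the remaining coregulators, no gene passed the test. Of 16 further coactivator genes 7 had estimates above and 9 below 0 (median log2 fold change -0.03), and of 17 further corepressor genes 6 and 11 (median -0.05), with 0 at an unadjusted p under 0.05 in either list. Over all genes 51.7% had estimates above 0 and 1.97% had an unadjusted p under 0.05 (edgeR). The counts of 0 do not stand apart from that. Hdac3, the deacetylase that NCoR complexes carry, was at 146 ± 5.25 CPM in WT and 147 ± 7.37 CPM in KO. Among coactivators, Ppargc1a (PGC-1alpha) was at 2.56 ± 0.599 and 3.36 ± 0.357 CPM, Pprc1 at 70.3 ± 8.98 and 62.6 ± 2.88 CPM, Ppargc1b at 13.1 ± 2.32 and 11.0 ± 1.72 CPM, and the arginine methyltransferase Carm1 at 7.99 ± 0.606 and 7.77 ± 1.096 CPM. Among other corepressors, Lcorl stood at 52.0 ± 2.30 and 46.0 ± 6.50 CPM and the demethylase Kdm1a at 21.9 ± 4.46 and 24.5 ± 2.41 CPM.

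Of 17 tested partners of CBP/p300, transcription factors and adaptors that recruit them, 8 had estimates above and 9 below 0 (median log2 fold change -0.02), with 0 at an unadjusted p under 0.05. For this list and those that follow, the all-gene shares are 51.7% above 0 and 1.97% at an unadjusted p under 0.05 (edgeR). Counts of 0 do not stand apart from the latter. The CREB coactivators Crtc3 and Crtc1 stood at 44.0 ± 3.16 and 61.0 ± 14.3 CPM in WT and at 39.4 ± 3.44 and 50.7 ± 7.995 CPM in KO, and the CREB relative Crem at 25.9 ± 5.43 and 21.9 ± 2.185 CPM. Of 15 receptor chaperone genes, which fold the glucocorticoid receptor into its ligand-binding state, 4 had estimates above and 11 below 0 (median -0.03), again with 0 at an unadjusted p under 0.05. The cyclophilin Ppid was at 175 ± 5.66 and 188 ± 16.1 CPM and the cochaperone Bag1 at 8.92 ± 1.52 and 7.56 ± 1.14 CPM. Of 15 tested retinoid and RXR target genes 7 had estimates above and 8 below 0 (median -0.04), and 0 had an unadjusted p under 0.05. Srebf1, a lipid synthesis regulator, was at 118 ± 28.6 and 95.7 ± 16.9 CPM, and Lpl at 0.548 ± 0.148 and 0.299 ± 0.179 CPM.

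Across libraries the 9 genes varied together in some pairs and in opposite directions in others. Of the 36 pairs, 18 had Pearson r of log2 CPM above 0, and the median r was -0.0025. An r above 0.5 was seen in 10 pairs and an r under -0.5 in 5, over 8 libraries that share depth and composition effects. The same shares over all pairs of genes tested were not computed, so these counts cannot be read as particular to the 9 genes. Crebbp went with Nrip1 (r = 0.81, Spearman rho 0.71), Ncor1 (0.81 and 0.79), Nr3c1 (0.75 and 0.60) and Ncoa1 (0.69 and 0.60). Ep300 went the other way, with r = -0.54 to Crebbp, -0.71 to Ncor1 and -0.75 to Nr3c1, and had its highest r with Ncoa3 (0.57). These are descriptions of 8 points and carry no test. The TEC share of counts moved with Nrip1 (r = 0.71), Ncor1 (0.67), Ncoa2 (0.64), Ncoa1 (0.51), Crebbp (0.50) and Rxra (0.50). In the same order rho was 0.81, 0.52, 0.86, 0.36, 0.40 and 0.36. It moved less with Nr3c1 (r = 0.08), Ep300 (-0.15) and Ncoa3 (-0.21). The part of the TEC share in these relations was not tested. Among 7418 other genes of at least 20 CPM, the closest in pattern to Nr3c1 were the general transcription factors Gtf2e1 (r = 0.93, rho 0.95) and Tbp (0.92 and 0.93) and the glycosyltransferase Poglut1 (0.92 and 0.90). Those closest to Crebbp were the kinase Rock1 (0.96 and 0.95), Dph7 (0.96 and 0.95) and the lipid kinase Pik3ca (0.94 and 0.93). These genes were picked as the highest of 7418 values of r, each over 8 libraries, which favours high values. No test was made on them.

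**Figure D4:**
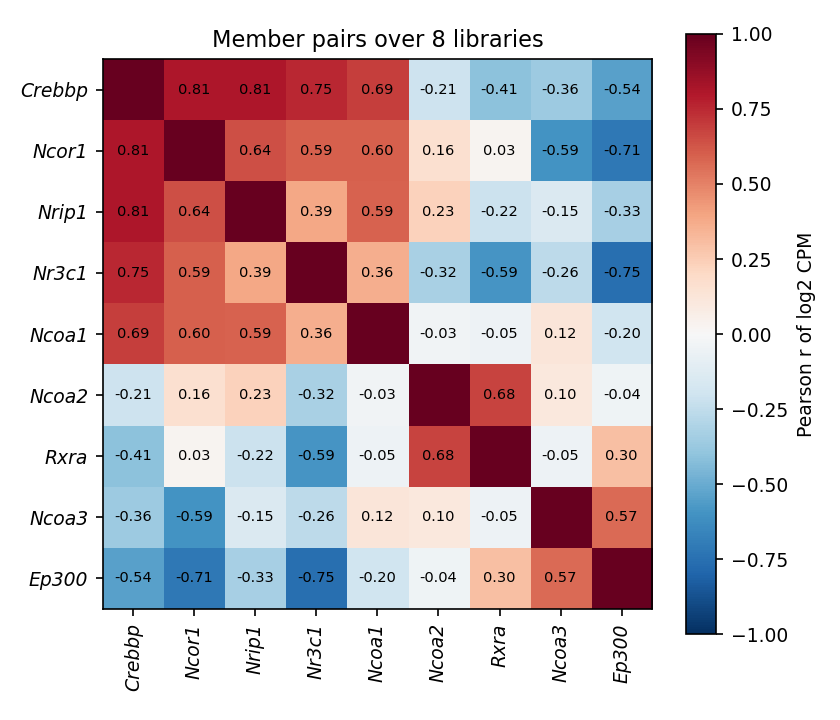
Pearson r of log2 CPM over the 8 libraries for each pair of the 9 genes, red above and blue below 0. Crebbp, Ncor1, Nrip1, Nr3c1 and Ncoa1 form a block of positive values, and Ep300 is negative against all 5 of them.

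The deposited RSEM tables gave a further readout, the mean transcript length of each gene weighted by the estimated abundance of its isoforms. For 8 of the 9 genes it varied between libraries, and in 2 of them, Ncoa3 and Ncor1, all KO libraries lay above all WT libraries, as in 1.57% of the 12166 genes whose length varies. None of the 9 had all KO libraries below, beside 0.806%. For Ncoa3 the lengths were 6763, 7271, 6716 and 7141 bases in WT1 to WT4 and 7429, 7416, 7305 and 7437 bases in KO1 to KO4. For Ncor1 they were 2436, 2482, 2458 and 2456 bases in WT and 3160, 2769, 2488 and 2640 bases in KO, far under the 12811 bases of all its annotated exons, with KO1 the longest and KO3 only just above WT. Ncoa3 was also the 1 of 9 genes whose TPM lay lower in all KO libraries, beside 0.905% of all genes tested (and 0 of 9 higher in all, beside 0.587%). It was at 18.9, 16.1, 15.2 and 16.3 TPM in WT1 to WT4 and at 14.4, 12.8, 13.7 and 14.1 TPM in KO1 to KO4. TPM divides by that length, and the RSEM expected counts of Ncoa3 gave a log2 fold change of -0.14 with an unadjusted p of 0.148 (edgeR, adjusted p 0.9999). The files give no error for the isoform estimates, and no test was made on these lengths.

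**Figure D5:**
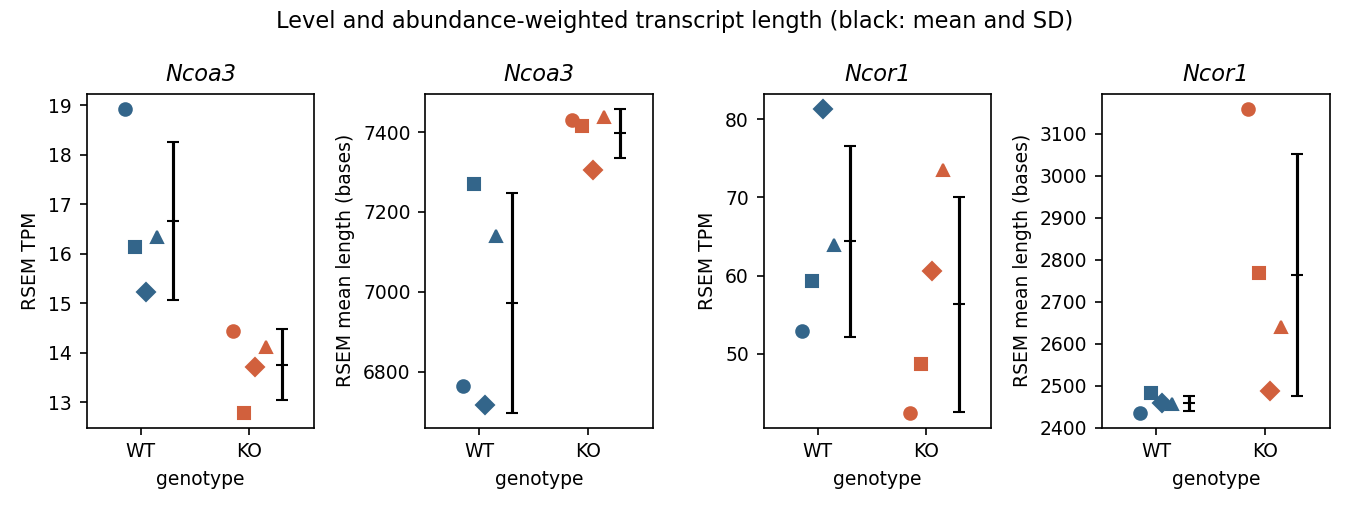
RSEM TPM and abundance-weighted mean transcript length (bases) of Ncoa3 and Ncor1 in each library, marker shapes giving library numbers 1 to 4 (circle, square, diamond, triangle), and black bars the mean and SD. Axes do not start at 0. Ncoa3 lengths are 6716 to 7271 bases in WT and 7305 to 7437 in KO, and its TPM 15.2 to 18.9 against 12.8 to 14.4.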

How the data were processed

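Per the labels' protocols, 200 ng of total RNA per sample went into a single-cell/low-input library kit. The authors deposited whole-number counts per gene from featureCounts 1.6.4 per the file headers, whose command sets no strand, read-pair or duplicate option, and RSEM 1.3.1 expected counts, TPM and mean transcript length per gene; the submitters' processing notes also list STAR 2.6.0a and Picard 2.19, without their roles. The notes name mm10 and the header annotation path GRCm39; coordinates are those of the count files. Per library, total counts were between 3.67 and 4.00 times the total of expected counts, and the cause was not tested. Symbols were matched by identifier for 97.1% of genes.

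The count fit used edgeR 4.0.16 under R 4.3.3 (filterByExpr, TMM, quasi-likelihood F test, no covariate, Benjamini-Hochberg over all genes). SE is the size of the log2 fold change over the square root of F, and log2 CPM used a prior count of 3. Trerf1 was compared by an exact permutation test over 70 assignments. RSEM expected counts were rounded for the alternative fit. Levels between genes used the deposited TPM. The steps were tested on simulated data. Alternatives used other scalings, filters, DESeq2 1.42.0, limma-voom 3.58.1, a replicate block, Xist as covariate, and left-out libraries.

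The members and gene lists were chosen with earlier results of these data known. Named were all 9 members, Trerf1, Xist, the 3 non-members of smallest p in each list, 12 set genes and the 3 genes nearest in pattern to Nr3c1 and to Crebbp. Some genes that this rule names are not reported here. Protein motif searches that had been planned were not run.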

Additional observations from a re-analysis of the deposited data

Results flagged for a closer look

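Within each group of 4, the library farthest from the rest was compared with Dixon's 95% critical value for the 9 genes and Trerf1, 20 groups in all, of which chance flags about 1 in 20. In 2 groups a library stood apart, both times KO4. Ncoa1 was at 29.4 CPM in KO4 against 17.5 to 19.1 CPM in the other KO libraries, the gap being 0.864 of the group's range. Trerf1 was at 22.1 CPM in KO4 against 12.1 to 13.4 CPM in the others, a gap of 0.876 of the range. KO4 was the deepest KO library and had the highest TEC share of counts, 0.308%; their part was not tested.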

How the results depend on the processing

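Each of the 9 members stayed above an adjusted p of 0.05 in every alternative run, and at an unadjusted p under 0.05 stood Ncoa3 without WT3 alone. Over all genes tested, the number with an adjusted p under 0.05 was 0 in each run, except 12 with WT4 and KO4 left out together. The log2 fold changes of Ncoa2, Ncoa3, Ep300 and Nr3c1 kept their sign in all, but with 1 library left out they ran from -0.18 to -0.044 (without WT2), from -0.24 to -0.12, from -0.18 to -0.014 (without WT1) and from 0.021 (without WT1) to 0.13. The other 5 changed sign in at least 1 alternative. Crebbp (0.00) was -0.0054 with RLE factors, -0.029 with library size alone, -0.012 with no filter, -0.011 with a mean CPM of at least 1, -0.028 with Xist as covariate, -0.0038 with DESeq2 and -0.031 with WT4 and KO4 left out. Ncor1 (0.01) was -0.025 with library size alone, -0.0065 with no filter, -0.0054 with a mean CPM of at least 1, -0.010 with limma-voom and -0.070 with WT4 and KO4 left out. Nrip1 was 0.018 with RSEM expected counts. Rxra (0.02) was -0.020 with library size alone, -0.0018 with the replicate block, -0.20 with limma-voom and -0.24 with WT4 and KO4 left out. With 1 library left out, the ranges were -0.35 to 0.0074 for Ncoa1, -0.073 to 0.066 for Crebbp, -0.092 to 0.11 for Ncor1 and -0.13 to 0.18 for Rxra.

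Trerf1 differed by -0.90 in mean log2 CPM (exact permutation p = 0.0286), by -0.93 with library size alone and by -0.96 with RSEM expected counts (p = 0.0571 each). It differed by -1.099 to -0.81 with 1 library left out, with an exact permutation p of 0.0571 without any 1 WT library, and by -1.20 with WT4 and KO4 left out (exact permutation p = 0.1, the smallest that 3 against 3 can give). For Trerf1, WT4 was the lowest WT library and KO4 the highest KO library, so leaving out this pair widens the gap by construction. By edgeR the adjusted p of Trerf1 was 0.999 over all 8 libraries (log2 fold change -0.87). It was 0.0473 with WT4 and KO4 left out (log2 fold change -1.20). By CPM per kilobase the ranks were 1 for Crebbp, 3 for Ncoa3 and 4 for Ncor1. Same-numbered libraries did not all deviate together (r = 0.44, 0.39, -0.03 and 0.18), so the replicate block, with which 0 members and 0 genes passed (634 against 322 genes at an unadjusted p under 0.05), is an alternative alone. The 5 libraries with Xist alone, chosen after seeing the data, gave 0 called genes.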
